A study of Mus musculus with 6 samples.

Results

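Transcripts of the Slit, Robo and netrin guidance family were examined in endothelial cells (EC) sorted from infant and young adult mouse lung. The genes of interest were Robo1, Robo4, Slit2, Slit3, Unc5b and Ntn4, chosen by symbol, and 5 of these 6 were found among the 12623 genes of the RPKM table (reads per kilobase of transcript, scaled to the mapped reads of each library). No row carried the symbol Ntn4, so netrin-4 was not analysed here. Each of the 5 genes was represented by 1 transcript row. The 6 libraries came from C57BL/6N mice, 3 from infants and 3 from young adults, with no treatment named, and the series describes them as independent biological replicates. Cells were collected by flow cytometry as CD31+CD34+ after depletion of PTPRC+, LYVE1+, PDPN+ and LY76+ cells, a gate on whole lung that does not separate vessel types. The comparison asked which guidance transcripts differ between growing infant vessels and the largely resting vessels of young adults.

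SLIT proteins are secreted ligands that bind ROBO receptors through leucine-rich repeats and steer growing axons and vessel sprouts. ROBO1 and ROBO2 are the classical receptors with a long extracellular part, whereas ROBO4 is a shorter receptor found mainly on endothelium, where it is known for stabilising the vessel barrier. ROBO4 lacks several of the extracellular domains of ROBO1, and it has been described as a partner of UNC5B. UNC5B is a netrin receptor of arterial and sprouting EC, and netrins are laminin-related ligands that also bind DCC and neogenin.

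Promoter sequences are shown for both Robo receptors because their levels lay in opposite directions between the ages, and for Slit2 because it followed Robo1 across libraries. These are the 250 bases before the annotated start (RefSeq, GRCm38.p6, plus strand in all 3 cases), with CG dinucleotides in capitals. The Robo1 and Slit2 windows lie inside the annotated span of their genes, and the Robo4 window lies partly inside it.
Robo4 (chr9:37401722-37401971): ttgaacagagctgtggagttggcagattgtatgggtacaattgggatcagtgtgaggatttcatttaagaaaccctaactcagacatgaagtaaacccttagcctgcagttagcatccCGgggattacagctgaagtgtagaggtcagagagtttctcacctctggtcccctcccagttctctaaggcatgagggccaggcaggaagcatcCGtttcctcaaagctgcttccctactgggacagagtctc
Robo1 (chr16:72662899-72663148): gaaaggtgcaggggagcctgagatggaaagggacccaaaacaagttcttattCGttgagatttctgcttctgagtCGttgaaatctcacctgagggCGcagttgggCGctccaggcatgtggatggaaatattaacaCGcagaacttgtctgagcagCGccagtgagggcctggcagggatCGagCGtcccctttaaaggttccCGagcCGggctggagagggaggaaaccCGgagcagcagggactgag
Slit2 (chr5:47982905-47983154): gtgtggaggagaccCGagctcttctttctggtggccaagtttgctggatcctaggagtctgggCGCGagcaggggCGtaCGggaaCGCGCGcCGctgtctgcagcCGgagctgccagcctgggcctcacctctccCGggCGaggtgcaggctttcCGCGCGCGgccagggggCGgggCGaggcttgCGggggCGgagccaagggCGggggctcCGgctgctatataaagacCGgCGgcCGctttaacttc
The Robo4 window held 2 CG dinucleotides, that of Robo1 11 and that of Slit2 25, against a median of 6 over 32851 promoters of the same length. Fewer CG dinucleotides than in Robo4 were found in 18.8% of these promoters. The windows of Slit3 and Unc5b held 35 and 27. These counts describe the reference sequence only, and methylation was not analysed here.

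Endothelial markers were high in all libraries, with Cdh5 (VE-cadherin) between 213.8 and 316.9 RPKM and Pecam1 (CD31) between 309.8 and 657.8 RPKM. The 12 endothelial markers summed to 3041 to 4485 RPKM in infant and 5043 to 5404 RPKM in young adult libraries. Markers of other cell types were also measured, and a gene is said to be called where limma gave an adjusted p under 0.05 and a log2 difference over 0.81. The 12 fibroblast markers summed to 1493, 351.7 and 1054 RPKM in the infant libraries and to 11.8 to 27.4 RPKM in young adult libraries, and 11 of the 12 were called lower. The 11 mural cell markers summed to 247.8, 81.5 and 253.8 RPKM in the infant libraries and to 13.1 to 19.2 RPKM in young adult libraries, with 10 called lower. No gene of either list was at 0 in all young adult libraries, and 4 of each stayed under 1 RPKM there. The defining marker Pdgfra measured 87.2, 2.6 and 66.8 RPKM in infant EC, against 0.2 to 0.6 RPKM in EC of young adults. Epithelial markers (10 genes found) summed to 6490 to 11348 against 1835 to 8370 RPKM, leukocyte markers (6) to 296.1 to 487.4 against 136.7 to 527.6 RPKM, erythroid markers (7) to 9656 to 79864 against 822.2 to 1351 RPKM, and Msln, the 1 mesothelial marker found, measured 2.4 to 4.5 against at most 0.2 RPKM. Infant replicate 2 stood apart from the other infant libraries (Pearson correlation across genes 0.963 and 0.964, against 0.987 between replicates 1 and 3). Its correlation with the young adult libraries was 0.949 to 0.963, against 0.896 to 0.912 for infant replicates 1 and 3. The Y-linked gene Ddx3y measured 16.5 to 21.9 RPKM in all infant and 0 in all young adult libraries, although the study describes female mice. Xist, which is transcribed from the inactive X chromosome of female cells, measured 7.6 to 8.7 RPKM in infant and 12.5 to 15.6 RPKM in young adult libraries. Age, sex and the makeup of the sorts therefore cannot be told apart in these libraries, and in bulk RNA fewer cells of a type cannot be told apart from less RNA per cell.

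Robo4 was the highest of the 5 guidance genes at both ages. It measured 64.1, 82.4 and 59.8 RPKM in the infant libraries (replicates 1 to 3) against 94.0, 89.3 and 91.2 RPKM in those of young adults. All 3 young adult libraries lay above the highest infant library, which was infant replicate 2. The gene (chromosome 9, 37401902 to 37414023, transcript NM_028783) ranked 682 of 12623 by its mean level in infant EC and 497 in young adult EC. Its means of 68.8 ± 12 and 91.5 ± 2.36 RPKM (SD, n = 3 each) differed by a ratio of 1.33. On the log2(RPKM + 1) scale the difference was 0.42 with a standard error of 0.14 and a 95% interval from 0.11 to 0.73. The adjusted p of 0.0564 (limma, Benjamini-Hochberg) did not pass 0.05. Without infant replicate 2 the adjusted p was 0.00379, at a log2 difference of 0.56 that stayed under the 0.81 required. Leaving out any other library gave a limma adjusted p of 0.126 to 0.158. Endothelial markers as a whole were also higher in young adult libraries. Per 100 RPKM of summed endothelial markers, Robo4 measured 1.92, 1.84 and 1.97 in infant EC, against 1.86, 1.69 and 1.69 in EC of young adults. On that scale the ages overlapped, and the log2 difference after scaling all genes to equal endothelial marker sums was -0.13 (adjusted p 0.492). Per RPKM of Cdh5, Robo4 measured 0.276, 0.266 and 0.280 in infant EC, against 0.340, 0.284 and 0.288 in EC of young adults, without overlap. Per RPKM of Pecam1 it measured 0.207, 0.161 and 0.181 in infant and 0.164, 0.136 and 0.157 in young adult libraries, which overlapped. The direction relative to endothelial markers thus depended on the marker used.

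**Figure D1:**
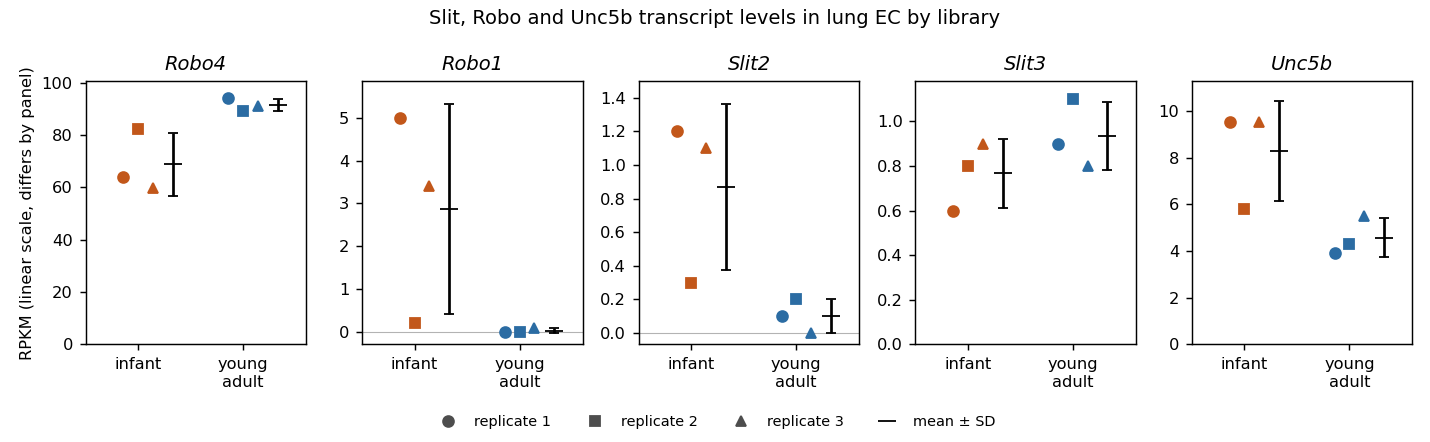
Levels of the 5 guidance genes in each of the 6 libraries (vertical axis in RPKM, linear and different in each panel), with infant libraries in orange, young adult libraries in blue, the replicate number as symbol, and the group mean with SD beside them. Robo4 lies higher in all young adult libraries, Robo1, Slit2 and Unc5b lie lower in them, and infant replicate 2 is the infant library nearest to the young adult values for these 4 genes.

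Robo1 was nearly confined to 2 of the infant libraries. It measured 5.0, 0.2 and 3.4 RPKM in the infant libraries (replicates 1 to 3) against 0.0, 0.0 and 0.1 RPKM in those of young adults. Infant replicate 2 differed from the highest young adult library by 0.1 RPKM, which is the rounding step of the table. The gene (chromosome 16, 72027518 to 73047491, NM_019413) had means of 2.87 ± 2.44 and 0.0333 ± 0.0577 RPKM. The log2 difference was -1.62 with a standard error of 0.53, a 95% interval from -2.84 to -0.39 and a limma adjusted p of 0.0587. Without infant replicate 2 the difference was -2.32 and Robo1 was called (adjusted p 4.15e-05). Leaving out any other library gave a limma adjusted p of 0.122 to 0.174, and Robo1 was not called. Robo1 entered the test through infant libraries alone, since none of the young adult libraries reached the required 1 RPKM.

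Robo2, the other receptor of the family that the table held, had the same distribution at a higher level. It measured 12, 1.2 and 9.1 RPKM in the infant libraries and 0.1 RPKM in each young adult library, and was called lower in young adult EC (log2 difference -2.59, adjusted p 0.0188). When 1 library at a time was left out, Robo2 remained called only without infant replicate 2. Like Robo1, it entered the test through infant libraries alone. Robo1 and Robo2 were therefore highest in infant replicates 1 and 3 and far lower in infant replicate 2, as were the summed fibroblast and mural markers. Summed erythroid markers were likewise lowest in infant replicate 2, at 30427, 9656 and 79864 RPKM in infant replicates 1 to 3. Epithelial and leukocyte sums and Msln were instead highest in infant replicate 2 among the infant libraries. The part of other cell types in the Robo1 and Robo2 values was not tested.

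Of the summed RPKM of Robo1, Robo2 and Robo4, the Robo4 share was 79.0%, 98.3% and 82.7% in the infant libraries against 99.9%, 99.9% and 99.8% in those of young adults. Robo2 made up 14.8%, 1.43% and 12.6% in the infant libraries. The log2 ratio of Robo4 to Robo1, on the RPKM + 1 scale, was 3.44, 6.12 and 3.79 in infant EC, against 6.57, 6.5 and 6.39 in EC of young adults. The ages did not overlap and the means differed by 2.04, with a two-sided exact permutation p of 0.1 that is also the smallest this design allows (0.1 adjusted over the 2 ratios tested).

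**Figure D2:**
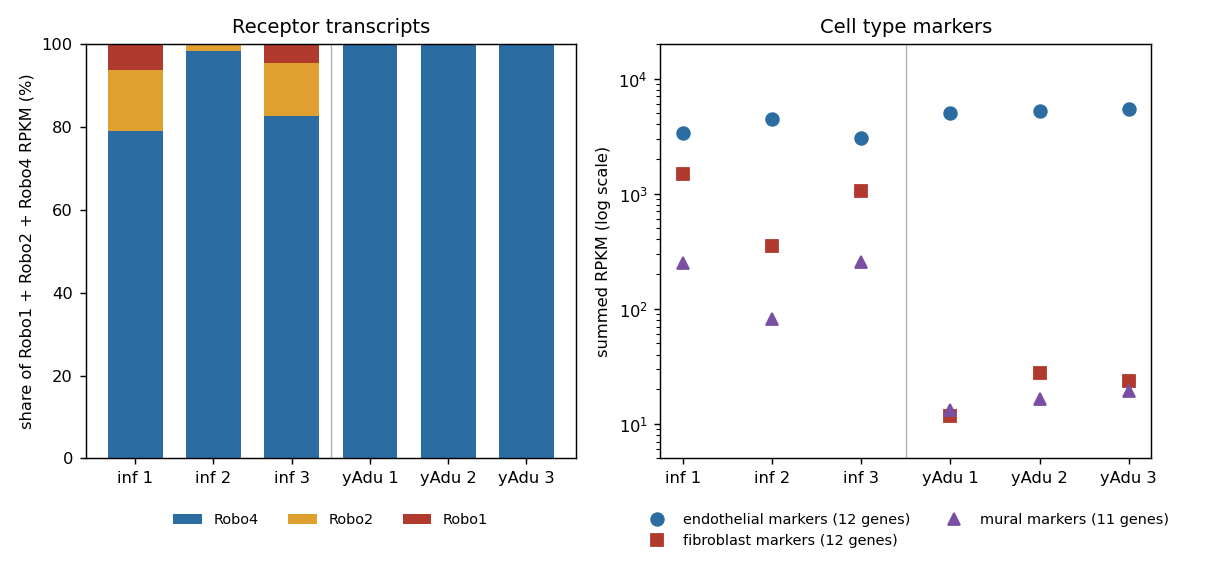
Left, share of Robo4, Robo2 and Robo1 in the summed RPKM of the 3 receptors in each library (%). Right, summed RPKM of endothelial, fibroblast and mural markers in the same libraries (log axis). Robo1 and Robo2 take up visible shares in infant replicates 1 and 3, the libraries with fibroblast marker sums of 1493 and 1054 RPKM.

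The SLIT ligand transcripts were scarce. Slit2 measured 1.2, 0.3 and 1.1 RPKM in the infant libraries (replicates 1 to 3) against 0.1, 0.2 and 0.0 RPKM in those of young adults. The ages did not overlap, although infant replicate 2 and young adult replicate 2 were 1 rounding step apart. For Slit2 (chromosome 5, 47981291 to 48307735, NM_178804) the log2 difference was -0.73 with a standard error of 0.23, an interval from -1.26 to -0.20 and a limma adjusted p of 0.052. It was called without infant replicate 2 (-0.97, adjusted p 0.00132), and like Robo1 it reached 1 RPKM in infant libraries only. Leaving out any other library gave a limma adjusted p of 0.111 to 0.177, and Slit2 was not called.

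Slit3 measured 0.6, 0.8 and 0.9 RPKM in the infant libraries (replicates 1 to 3) against 0.9, 1.1 and 0.8 RPKM in those of young adults. These ranges overlapped. For Slit3 (chromosome 11, 35121456 to 35708507, NM_011412) the log2 difference was 0.13 with an interval from -0.20 to 0.46 (adjusted p 0.527), and it was -0.13 after scaling to equal endothelial marker sums. The gene was tested because a single library, young adult replicate 2, reached 1 RPKM. In contrast to Slit2, its infant replicate 2 value lay between those of the other infant libraries. The log2 ratio of Slit2 to Slit3 was 0.46, -0.47 and 0.14 in infant and -0.79, -0.81 and -0.85 in young adult libraries. The difference was -0.86 without overlap (exact permutation p 0.1, the smallest possible, and 0.1 adjusted over the 2 ratios). Slit2 reached 1 RPKM only in infant libraries and Slit3 only in young adult replicate 2, with no value above 1.2 RPKM. The ratio therefore rests on values near the floor, and this test cannot decide whether it differed between the ages.

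Unc5b, the netrin receptor, was present at moderate levels in all libraries. It measured 9.5, 5.8 and 9.5 RPKM in the infant libraries (replicates 1 to 3) against 3.9, 4.3 and 5.5 RPKM in those of young adults. Every infant library exceeded every young adult library, with infant replicate 2 and young adult replicate 3 only 0.3 RPKM apart by these values. For Unc5b (chromosome 10, 60762594 to 60831581, NM_029770) the means were 8.27 ± 2.14 and 4.57 ± 0.833 RPKM, a ratio of 0.552. It was the only one of the 5 genes with an adjusted p under 0.05 (limma, 0.0326), but its log2 difference of -0.72, with a standard error of 0.19 and an interval from -1.17 to -0.27, stayed under the required fold threshold, which is 0.81 on the log2 scale. The adjusted p was above 0.05 without infant replicate 1 (0.109), infant replicate 3 (0.0996), young adult replicate 1 (0.111) or young adult replicate 2 (0.109). Without infant replicate 2 the difference was -0.93 and Unc5b was called (adjusted p 0.00192), as it was without young adult replicate 3 (-0.83, adjusted p 0.0452). Per 1000 RPKM of summed endothelial markers Unc5b measured 2.84, 1.29 and 3.12 in infant EC, against 0.773, 0.815 and 1.02 in EC of young adults, again without overlap.

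Among the other netrin genes, Ntn1, which encodes the ligand netrin-1, was called higher in young adult EC. It measured 3.0, 2.7 and 3.0 RPKM in infant EC, against 7.1, 6.2 and 5.1 RPKM in EC of young adults. All 3 infant libraries were alike, infant replicate 2 included, and the log2 difference was 0.86 with a standard error of 0.13 (adjusted p 0.00446). The call of Ntn1 was lost without young adult replicate 1, with a pseudocount of 5 and in the test against the fold threshold. It was also lost after scaling to equal endothelial marker sums or to totals without globin genes. Unc5a, a relative of Unc5b, measured 0.6 to 1.4 RPKM over the 6 libraries (log2 difference -0.25, adjusted p 0.26). Neo1, which encodes neogenin, a receptor for netrins and repulsive guidance molecules, measured 1.3, 0.4 and 2.0 RPKM in infant EC, against 0.1, 0.3 and 0.1 RPKM in EC of young adults (-0.87, adjusted p 0.0511), and it was lowest in replicate 2 among the infant libraries. It was called lower in 8 of the 12 alternatives that kept all libraries and in 1 of the 6 fits without 1 library, that without infant replicate 2, and it too reached 1 RPKM in infant libraries alone. The remaining 10 of the 14 other ligands and receptors considered, among them Slit1, Robo3 and Dcc, had no row and were not analysed here.

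Over the 5 genes, limma called 0 at an adjusted p under 0.05 and a log2 difference over 0.81, against 11.4% of all 12458 tested genes, with 8.1% lower and 3.33% higher. An adjusted p under 0.05 at any fold was reached by 1 of 5, against 25.5% of all tested genes, and an unadjusted p under 0.05 by 4 of 5, against 40.4%. The ages did not overlap for 4 of the 5, against 43.4% of all tested genes, but for Robo1 and Slit2 they lay only 0.1 RPKM apart. Robo1 and Slit2 also entered the test through infant libraries alone. The median log2 difference of the 5 genes was -0.72, against -0.07 for all tested genes. Robo1, Slit2 and Unc5b were each called lower without infant replicate 2, where 15.1% of 12394 tested genes were called and 10.6% were called lower. Only Unc5b among these 3 was above 3 RPKM in every library.

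**Figure D3:**
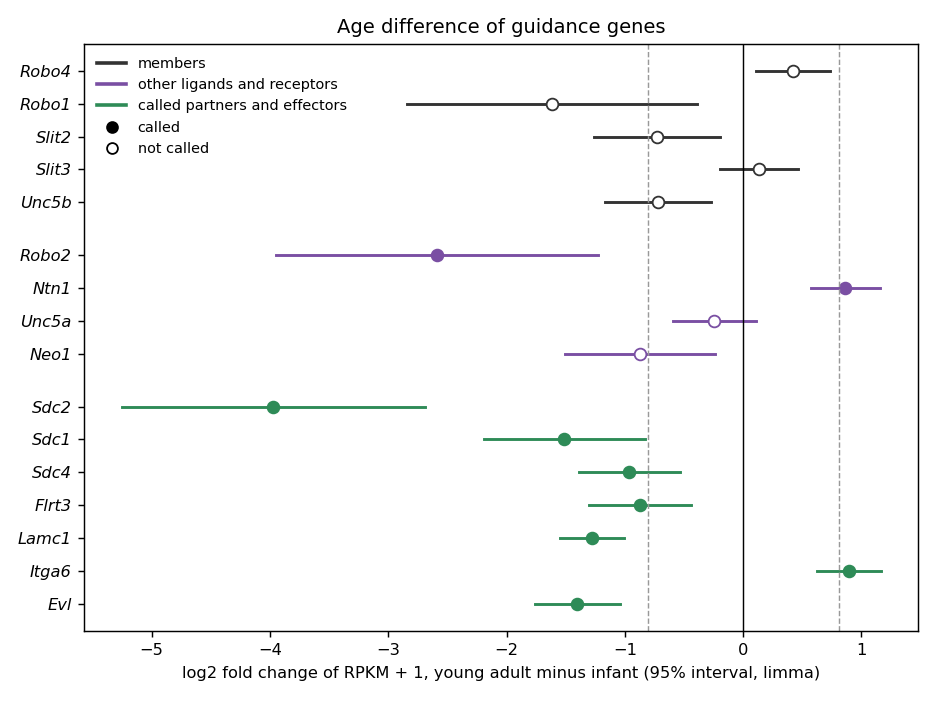
Log2 fold change of RPKM + 1 (young adult minus infant, points) with 95% intervals from limma for the 5 guidance genes, the 4 other ligands and receptors measured, and the partners and effectors that were called. Filled points were called, and dashed lines mark a log2 value of 0.81. Robo2 and the syndecan gene Sdc2 lie farthest to the left at -2.59 and -3.97, and Ntn1 and Itga6 lie to the right of the upper line.

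Genes whose products bind SLIT, ROBO, UNC5B or netrins, or act behind these receptors, were examined next. Of the 57 genes on 3 lists (14 other ligands and receptors, 14 binding partners and 29 intracellular effectors), 39 were tested. Of these, 9 were called, 7 lower and 2 higher in young adult EC, which is 23.1% against 11.4% of all tested genes, and the median log2 difference was -0.28 against -0.07. The 3 lists were chosen with earlier results of these data known. These shares, and those of the single lists below, therefore describe the lists and test nothing about them. Scaling to totals without globin genes gave 9 lower and 0 higher calls, where 1184 of 12412 tested genes were called lower and 344 higher. Scaling to equal endothelial marker sums gave 18 lower and 0 higher, where 2758 of 12459 were called lower and 164 higher. Without young adult replicate 1 only 4 were called, all lower, where 518 of 12430 tested genes were called lower and 328 higher. Of the 39 genes, 4 stayed under 1 RPKM in all young adult libraries and were tested through infant libraries alone (Robo2, Neo1, Unc5a and Gpc1), and of these Robo2 was called.

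Among the 11 tested binding partners, 5 were called lower and 1 higher, against 8.1% lower and 3.33% higher of all tested genes, and their median log2 difference was -0.57 against -0.07. Syndecans are cell surface heparan sulphate proteoglycans, a class of molecule that SLIT proteins need for binding to ROBO. Sdc2 measured 62.8, 13.2 and 69.5 RPKM in infant EC, against 1.3, 2.0 and 1.4 RPKM in EC of young adults (log2 difference -3.97, adjusted p 0.00385). Its level was lower in infant replicate 2 than in the other infant libraries, as for Robo1 and Robo2. Sdc1 (-1.51, adjusted p 0.0118) and Sdc4 (-0.96, adjusted p 0.0115) were also called lower, whereas Sdc3 measured 11.9 to 16.2 RPKM over all libraries (0.01, adjusted p 0.973). Sdc4 lost its call without young adult replicate 1 or 2, and Sdc1 with a pseudocount of 5. Of the 39 tested genes of the 3 lists, only Sdc2 was called in the test against the fold threshold.

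Lamc1, which encodes the laminin gamma 1 chain of basement membranes, measured 23.0, 21.1 and 27.3 RPKM in infant EC, against 8.4, 9.7 and 9.5 RPKM in EC of young adults (-1.28, adjusted p 0.00102). Here infant replicate 2 lay with the other infant libraries, and the call held without any 1 library. Flrt3, a membrane ligand of UNC5B, measured 3.8, 2.1 and 3.3 RPKM in infant EC, against 0.9 to 1.4 RPKM in EC of young adults (-0.87, adjusted p 0.016). It was called in 2 of the 6 fits without 1 library, those without infant replicate 2 or young adult replicate 3. Flrt3 also lost its call with a pseudocount of 5, after quantile normalization and in the test against the fold threshold. Itga6, the integrin alpha 6 subunit of laminin receptors, was called higher. It measured 17.4, 17.9 and 18.4 RPKM in infant EC, against 39.3, 33.9 and 29.6 RPKM in EC of young adults (0.89, adjusted p 0.00312). Itga6 lost its call without young adult replicate 1, with a pseudocount of 5 and in the test against the fold threshold. Its call was also lost after scaling to equal endothelial marker sums or to totals without globin genes.

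Intracellular effectors were mostly not called. Of 24 tested, 1 was called, against 11.4% of all tested genes. In young adult EC 19 lay lower and 5 higher, where 58.6% of all tested genes lay lower, and the median log2 difference was -0.21 against -0.07. The called gene was Evl, an actin regulator of the Ena/VASP family that acts behind guidance receptors. It measured 6.7, 6.3 and 9.3 RPKM in infant EC, against 1.9, 2.1 and 2.5 RPKM in EC of young adults (-1.40, adjusted p 0.00167). Its call held without any 1 library but was lost with a pseudocount of 5 and in the test against the fold threshold. The related gene Vasp had an adjusted p of 0.0096 but a log2 difference of -0.79 that lay just under the fold threshold. SRGAP proteins bind the intracellular part of ROBO receptors. Srgap1 measured 4.4 to 4.6 RPKM in infant and 2.9 to 3.2 RPKM in young adult libraries (-0.45, adjusted p 0.0152, under the fold threshold), and Srgap2 measured 9.5 to 13.5 RPKM over all libraries (-0.22, adjusted p 0.173).

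By mean level per length (RPKM), the order of the 5 guidance genes in infant EC ran from Robo4 through Unc5b, Robo1 and Slit2 to Slit3. The ranges of Robo4 and Unc5b were separate from those below them, whereas Robo1 overlapped Slit2 and Slit2 overlapped Slit3. In young adult EC it ran from Robo4 through Unc5b, Slit3 and Slit2 to Robo1, and only Slit2 and Robo1 overlapped. In infant replicate 2, Slit3 at 0.8 RPKM already lay above Slit2 at 0.3 RPKM and Robo1 at 0.2 RPKM, as in the young adult libraries.

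Profiles were compared with 6982 other genes with a mean of at least 5 RPKM by the root mean square difference of log2(RPKM + 1), each centred on its own mean over the 6 libraries. Nearest to Robo4 were Gimap5, a lymphocyte and endothelial GTPase gene, Tlr4, the endotoxin receptor gene, and Fam65a, with differences of 0.0305, 0.0338 and 0.0396. Nearest to Robo1 were Snai2, which encodes a transcription factor of mesenchymal cells, Colec12, a scavenger receptor gene, and Cdkn2c, a cell cycle inhibitor gene, at 0.15, 0.202 and 0.214. Snai2 measured 17.3, 3.6 and 14.7 RPKM in infant EC, against 2.0 to 2.7 RPKM in EC of young adults. Maged1, Nedd4 and Fndc3b lay nearest to Slit2 (0.0325, 0.0416 and 0.0621), and Fcgrt, the neonatal Fc receptor gene, Ngfrap1 and Mapre2 nearest to Unc5b (0.0858, 0.0902 and 0.0971). The pseudocount shrinks differences of low genes, so the matches to Robo1 and Slit2 hold on this scale only. In RPKM the young adult to infant ratio of Slit2 was 0.115, while Maged1 measured 58.1 to 99.6 in infant and 47.3 to 53.3 in young adult libraries. Nearest to Slit3 were Actr10, Slc30a6 and Trmt11 (0.0158, 0.0382 and 0.0414), genes that like Slit3 overlapped between the ages and had adjusted p values of 0.403, 0.326 and 0.328.

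**Figure D4:**
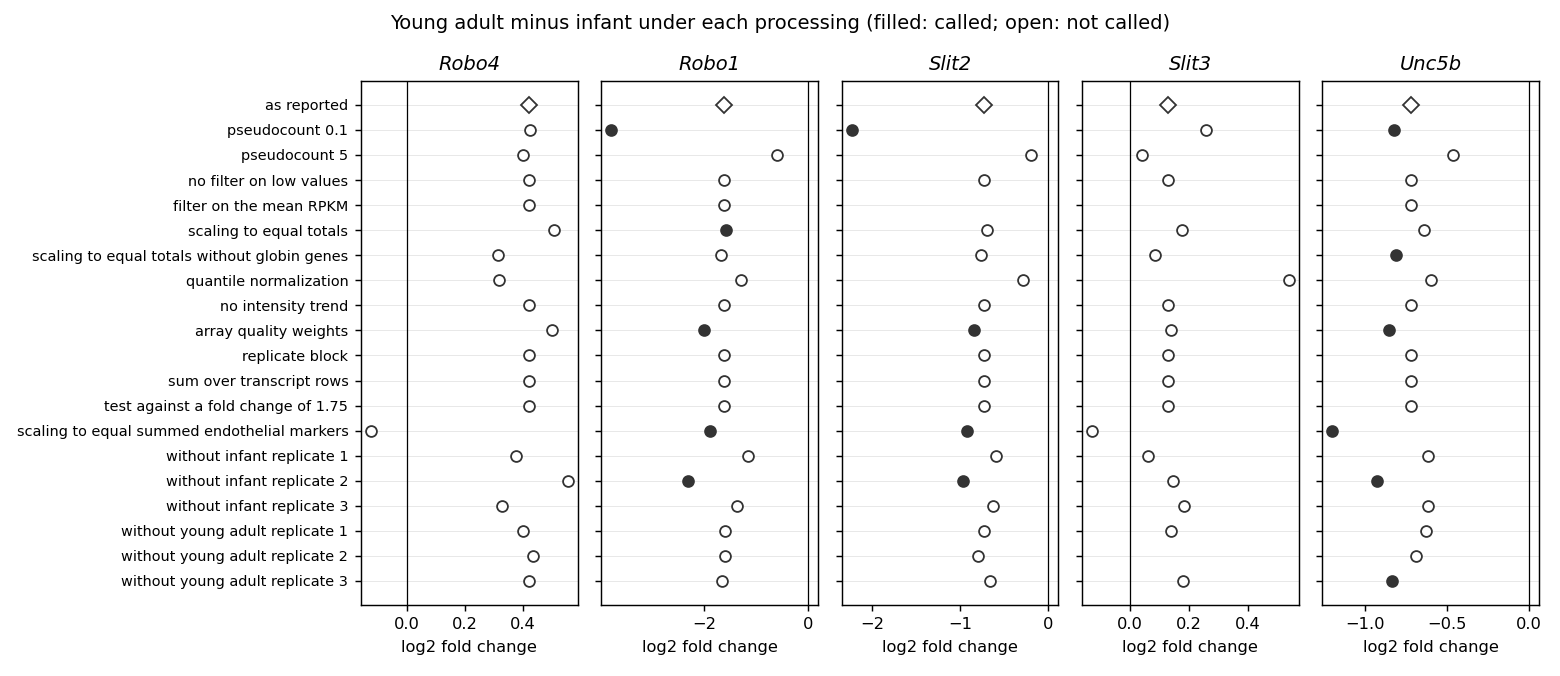
Log2 fold change of the 5 guidance genes (horizontal axis, young adult minus infant, a scale of its own in each panel) under the reported processing (diamond) and each alternative (circles), filled where called. Robo1, Slit2 and Unc5b stay left of 0 throughout, Robo4 and Slit3 cross 0 to -0.13 after scaling to equal endothelial marker sums, and a missing circle means that the gene did not enter that fit.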

How the data were processed

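RNA of 6 sorted lung EC samples was amplified by the SMARTer Ultra Low protocol and read from both ends on a HiSeq2000. Per the study's methods and the submitters' processing notes, the authors aligned reads to mm10 with STAR and used RefSeq genes and DESeq2. The version of STAR and the program behind the RPKM were not given in the sources used here. The deposited RPKM values are per library, rounded to 0.1, and hold no read counts, so the depth is unknown and no counting error can be given. 24 rows of 17241 had a symbol that a spreadsheet had turned into a date and were renamed by accession. The transcript row with the highest mean was kept for each of 12623 genes.

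In place of the study's count test, limma 3.58.1 (R 4.3.3) was run on log2(RPKM + 1) with an intensity trend and age group as the only term, for 12458 genes with at least 1 RPKM in at least 1 library. A gene was called where its log2 difference passed 0.81, the fold threshold of the study, and its Benjamini-Hochberg adjusted p was below 0.05. The pseudocount understates differences of low genes. The script was tested on simulated data. Ratios were compared by exact permutation. Replicates were numbered by the labels.

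The guidance genes and all gene lists were chosen with earlier results of these data known. Named genes are the 5 measured members, the other ligands and receptors in the table, called partners and effectors, and the 3 genes nearest in profile to each member. Vasp, Sdc3, Gpc1, Srgap1 and Srgap2, and the sex-linked Ddx3y and Xist, were named after their values were seen. Alternatives were other pseudocounts (0.1 and 5), filters, scalings, variance models, a replicate block, summed transcript rows, a test against the fold threshold and leaving out each library. Scaling to equal summed endothelial markers was chosen after seeing the data. Promoters are those of RefSeq GRCm38.p6, found for all 6 genes, and gene positions are whole genes of that build, which has the coordinates of mm10.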

Additional observations from a re-analysis of the deposited data

How the results depend on the processing

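Of the 5 guidance genes, 0 were called as reported, 3 with a pseudocount of 0.1, 3 with array quality weights, 3 after scaling to equal endothelial marker sums, 1 after scaling to equal totals and 1 after scaling without globin genes, all lower, and 0 to 3 without 1 library. Over all genes, 1424 of 12458 were called as reported, 1957 with the pseudocount of 0.1 and 1776 with array weights. Endothelial scaling called 2922 of 12459, equal totals 1479 of 12370 and scaling without globin genes 1528 of 12412. The log2 difference of Robo1 was -3.80 with the pseudocount of 0.1, -1.58 after scaling to equal totals, -2.01 with array weights and -1.88 with endothelial scaling, each called, and -2.32 to -1.15 without 1 library. Slit2 was called at -2.23, -0.84 and -0.93 with the pseudocount of 0.1, array weights and endothelial scaling, and measured -0.97 to -0.59 without 1 library. Unc5b was called at -0.82, -0.86, -1.20 and, without globin genes, -0.81, and measured -0.93 to -0.61 without 1 library. Robo4 (0.33 to 0.56 without 1 library) and Slit3 (0.06 to 0.19) were -0.13 with endothelial scaling, which moved the median of all genes by -0.46. Relative to that median both remained positive, at 0.41 and 0.40. Quantile normalization moved the median by 0.12, and gave Slit3 a log2 difference of 0.54 at an adjusted p of 0.0432, under the fold threshold. The log2 ratio difference ranged from 1.53 to 2.87 without 1 library for Robo4 to Robo1 and from -1.12 to -0.65 for Slit2 to Slit3.

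Of all genes 1424 were called as reported (29.1% higher), 578 with a pseudocount of 5 (41.5% higher), 176 in the test against the fold threshold, 2922 with endothelial scaling (5.61% higher), 1142 with quantile normalization (46.6% higher) and 846 to 1874 without 1 library. Of the 39 partner and pathway genes 9 were called as reported, 4 with a pseudocount of 5, 1 in the test against the fold threshold, 18 with endothelial scaling and 4 to 11 without 1 library. Deviations of same-numbered libraries correlated at 0.03, -0.11 and -0.02, within the range of differently numbered libraries (-0.12 to 0.11). Replicate numbers therefore showed no pairing by this measure, and whether same-numbered libraries shared a batch was not tested. With a replicate block 0 of the guidance genes, 9 of the partner genes and 1371 genes in all were called. Under the block the adjusted p was 0.0574 for Robo1, 0.0832 for Robo4, 0.0878 for Slit2, 0.581 for Slit3 and 0.0384 for Unc5b, and the paired permutation p of both ratios was 0.25, the smallest it allows. The log2 values were -1.62, 0.42, -0.73, 0.13 and -0.72 as without the block, and the ratio differences 2.04 and -0.86. Slit2 and Slit3 did not enter the fit with a filter on the mean RPKM, nor Slit3 that without young adult replicate 2, and no alternative was run for Ntn4. RPKM near the rounding step of 0.1 limit what can be said of Robo1 and Slit2 in young adult EC.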
